A study of Mus musculus with 22 samples.

Results

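Among first mandibular molars taken at postnatal day 5 (P5), the libraries whose names carry a 4 ahead of the hyphen were compared with those carrying a 3. The number ahead of the hyphen is called the prefix here, and what it stands for is not said in the labels. Prefix 4 held 6 libraries (WT 4-1, 4-4, 4-5 and 4-6, Het 4-2 and 4-3) and prefix 3 held 4 (WT 3-2 and 3-5, Het 3-1 and 3-6), which is 10 of the 22 libraries of the series. Members were chosen by library name alone, with genotype as a covariate, and no expression value entered the choice. WT animals carried Tgfbr2-+/+ and Het animals were their Tgfbr2-G357W/+ littermates. Tgfbr2 encodes the type II receptor of TGF-beta, and mice with the G357W allele serve to model Loeys-Dietz syndrome type II. Neither a strain nor a sex is given in the labels, all libraries share 1 batch label, and the tissue is described only as dental tissue of the first molar. A further pair of P5 libraries, Het 5-1 and 5-2, has prefix 5 and stayed outside the comparison. The tissue and treatment fields of Het 5-2 say P11 while its title and library name say P5. According to the series text 5 Het and 8 WT mice were used, fewer than the 22 libraries, and 1 mouse may thus have given more than 1 library. The p-values below measure the spread between libraries, which may in part be technical.

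At P5 the crown of the mouse first molar is being built. Ameloblasts, the enamel-forming epithelial cells, secrete amelogenin (Amelx), ameloblastin (Ambn) and enamelin (Enam), and odontoblasts lay down dentin with Dspp and collagen I. Ameloblasts later turn to maturation, when Odam, Amtn, Klk4 and ion carriers such as Slc24a4 are used. Immediate early genes such as Egr1 and Fos are transcribed within minutes of a stimulus and their RNA is short-lived. Clock genes such as Per1, Nr1d1 and Bhlhe40 take part in the circadian feedback loops and several of them also answer to hormones and to growth factors.

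The 10 libraries held similar numbers of reads, from 36713191 to 38763670 counts in prefix 3 and from 32903949 to 41046235 in prefix 4. Dental markers were abundant in every library. Ambn lay between 59300 and 102000 CPM and Dspp between 2440 and 3170 CPM, where CPM is the count scaled to library size by TMM factors. Sexes were balanced by the Y-linked gene Ddx3y, with 2 male and 2 female libraries in prefix 3 and 3 of each in prefix 4. The first principal component (22.7% of the variance) separated the sexes. The second (14.6%) set 2 libraries of prefix 4 apart, WT 4-5 at 22.8 and WT 4-6 at 27, with the others between -9.5 and 1.5. The third (12.7%) ran from -18.5 to -4.6 in prefix 3 and from -4 to 18.6 in prefix 4. Het 4-3 also stood apart by oral keratinocyte RNA. Its Krt4 level was 9.29 CPM against at most 0.444 CPM in the other prefix 4 libraries.

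**Figure D1:**
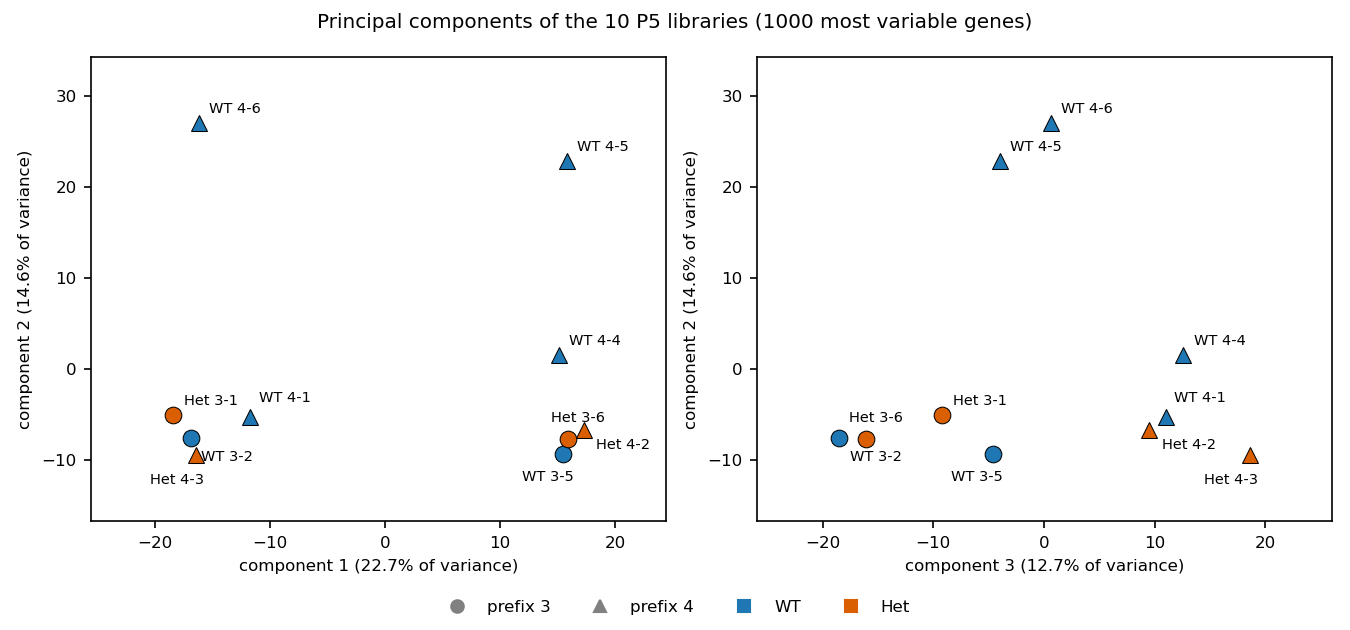
Scores of the 10 P5 libraries on the first 3 principal components of the 1000 most variable genes, with the percentage of variance on each axis. Circles are prefix 3, triangles are prefix 4 and the colour gives the genotype. Component 1 splits the sexes, component 2 sets WT 4-5 and WT 4-6 apart, and on component 3 all prefix 3 libraries lie at or below -4.6 and all prefix 4 libraries at or above -4.

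A small set of genes differed between the prefixes, and Egr1 headed it. Of 21387 genes tested with the quasi-likelihood test of edgeR (genotype as covariate, Benjamini-Hochberg adjusted p under 0.05), 197 were higher (0.921%) and 141 lower (0.659%) in prefix 4, which is 1.58% in all. Most differences were modest. The median log2 fold change was 0.44 for the higher genes, -0.55 for the lower genes and -0.01 for all genes tested. It went past 1 in size for 7 higher and 21 lower genes. In 180 of the 197 higher and 122 of the 141 lower genes the 6 prefix 4 libraries did not overlap the 4 prefix 3 libraries, a pattern found in 5.55% of all genes tested (3.08% with prefix 4 above, 2.46% below). The called genes were selected for a gap between the prefixes in these same libraries, so the shares are not like for like. The 12 genes of smallest p named below per direction were required not to overlap, so that pattern in them follows from the choice. In the lower direction they include Egr1, Rcan1, Txnip, Arrdc3, Ppp1r3c, Per1 and Bhlhe40. With upper-quartile scaling the split was 151 higher and 164 lower, so that 47.9% of the calls were higher in place of 58.3%. The number of calls changed when single libraries were left out. Without WT 4-1 162 higher and 108 lower genes were called, and without WT 4-6 141 and 132. Omitting a prefix 3 library, Het 4-2 or Het 4-3 left 1 library in an arm of genotype and prefix. It also let more genes through the filter, such as 22701 without Het 3-1. How much of each drop was due to the particular library was not tested. Leaving out WT 3-2 left 16 higher and 19 lower genes, Het 4-2 30 and 22, Het 3-6 39 and 28, WT 3-5 53 and 46, Het 4-3 68 and 38, Het 3-1 91 and 71, WT 4-5 105 and 80, and WT 4-4 152 and 93. In all 10 omissions 13 higher and 15 lower genes were called, and Egr1, Rcan1, Pip5k1b, Ccdc117, Txnip, Odam, Ahdc1 and Bambi had the smallest adjusted p among them.

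**Figure D2:**
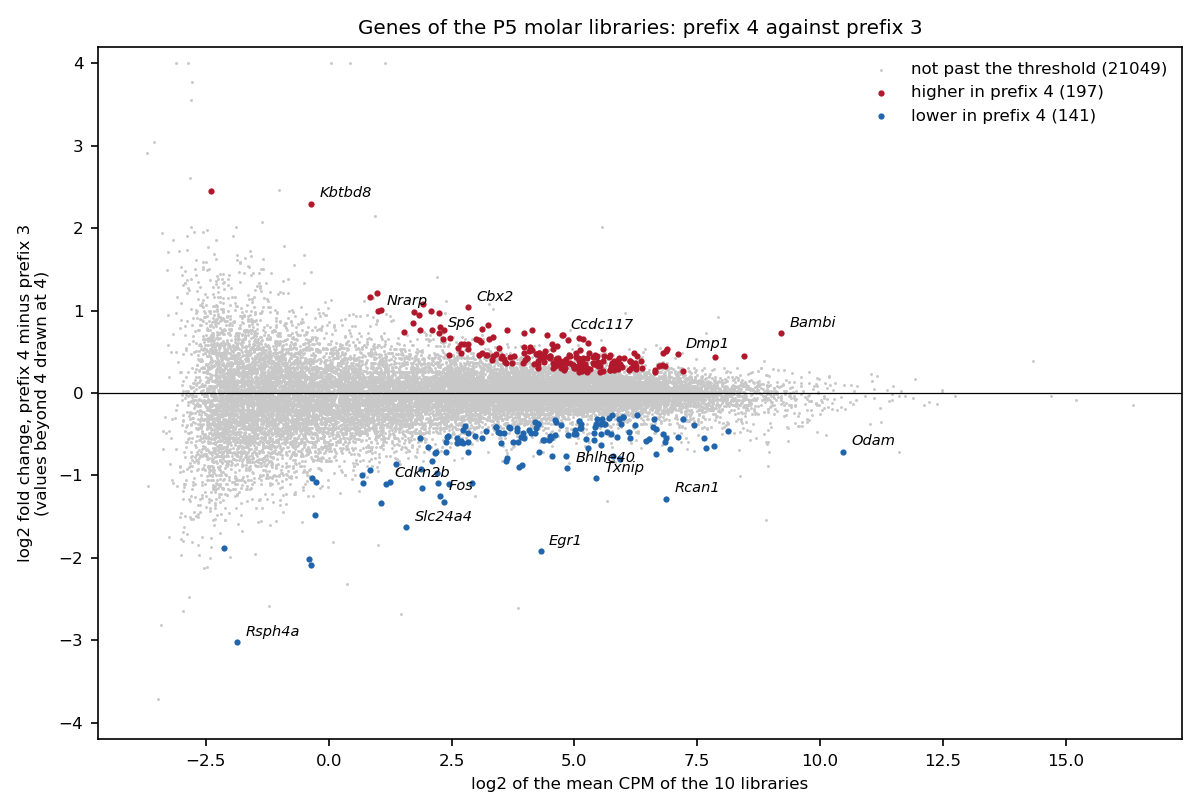
Log2 fold change of prefix 4 minus prefix 3 against the log2 mean CPM of the 10 libraries, 1 point per gene, for 21387 genes. Red points are the 197 genes higher and blue points the 141 genes lower in prefix 4 at an adjusted p under 0.05, with Egr1 at -1.92, Rcan1 at -1.28 and Bambi at 0.73.

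Egr1 and Fos, immediate early transcription factors, were both lower in prefix 4. Egr1 stood at 31.8 and 32 CPM in WT 3-2 and 3-5 and at 43.1 and 36.5 CPM in Het 3-1 and 3-6. In the 6 prefix 4 libraries it lay between 6.97 and 10.9 CPM with a median of 9.81 CPM. The groups were far apart and did not overlap. The log2 fold change was -1.92 ± 0.12 (SE), a 3.78-fold lower level in prefix 4 (edgeR, adjusted p = 1.94e-05). Egr1 was called under each alternative tried, with a largest adjusted p of 0.0324. Fos (chr12:85473890-85477273) was at 8.17 and 6.78 CPM in WT 3-2 and 3-5, 8.47 and 6.14 CPM in Het 3-1 and 3-6, and 1.92 to 4.11 CPM (median 3.03) in prefix 4. All prefix 4 values lay below all prefix 3 values. The log2 fold change of Fos was -1.25 ± 0.19 (SE, edgeR adjusted p = 0.0105), and leaving out WT 3-2 ended this call (adjusted p = 0.0686). Other immediate early genes did not pass the test. Of 19 tested members of that list 2 were lower and none higher, beside 0.659% lower and 0.921% higher of all genes tested. The median log2 fold change of the list was 0.01 beside -0.01 for all genes. Junb (0.06), Fosb (0.01), Ier2 (-0.21), Nr4a1 (-0.13), Dusp1 (0.17) and Zfp36 (0.01) had small log2 fold changes. Jun, a partner of Fos in AP-1, was at 0.56 (adjusted p = 0.0934), in the opposite direction. Atf3, also induced by cell stress, was at -0.83 with an adjusted p of 0.0564. Dusp6, a phosphatase that inactivates ERK and is a target of FGF signalling, was lower, with 20.7, 20.2, 24.9 and 23.3 CPM in WT 3-2, WT 3-5, Het 3-1 and Het 3-6 against 14 to 17.2 CPM (median 15.5) in prefix 4. Its log2 fold change was -0.48 ± 0.08 (SE, edgeR adjusted p = 0.0124), and the call ended without WT 3-2 (0.0671) or Het 4-2 (0.051). It was the 1 called gene of 19 tested in the FGF list (median -0.1), in which Spry2 (-0.18), Spry4 (-0.18), Etv4 (0) and Etv5 (-0.01) did not pass.

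**Figure D3:**
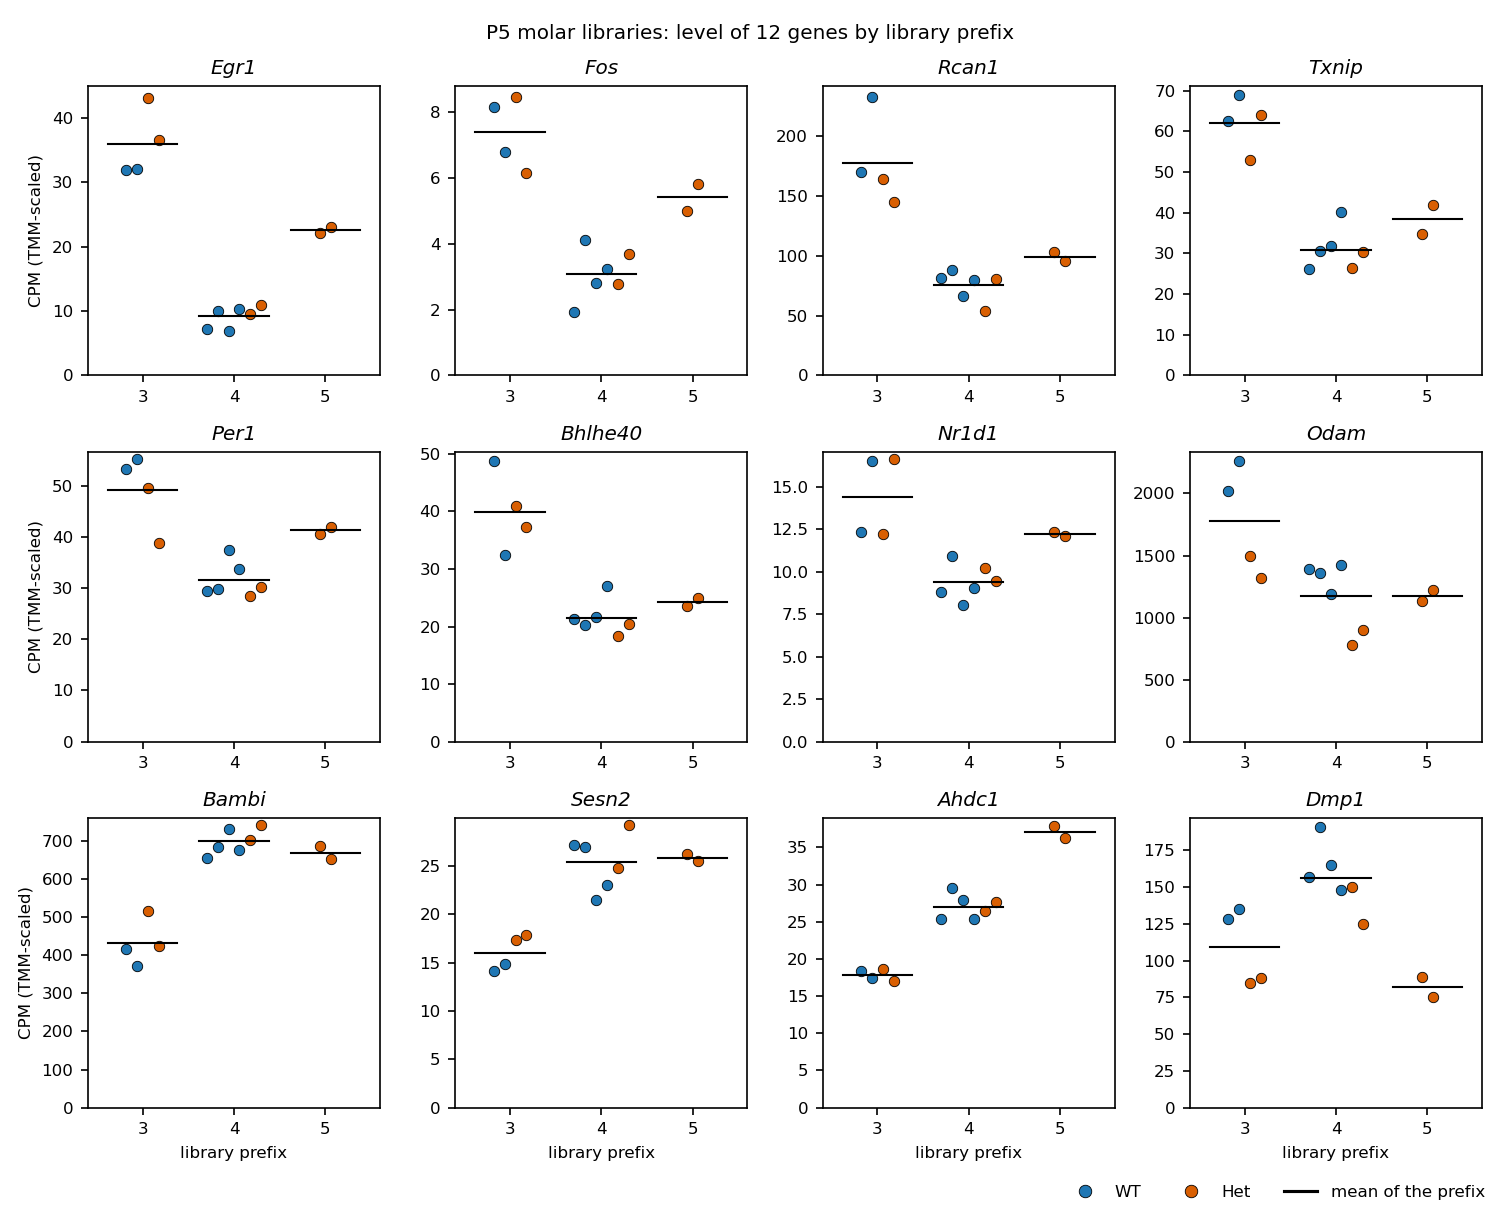
Level in CPM (scaled by TMM factors) of 12 genes in the P5 libraries of prefix 3, 4 and 5. Each point is 1 library, blue for WT and orange for Het, and the black line is the mean of the prefix. Egr1 lies between 31.8 and 43.1 CPM in prefix 3, between 6.97 and 10.9 CPM in prefix 4 and at 22.1 and 23 CPM in the 2 prefix 5 libraries, and Dmp1 and Odam overlap between prefixes 3 and 4.

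Rcan1, Txnip and Arrdc3, which act on calcineurin signalling and on glucose uptake and arrestin-type trafficking, were lower in prefix 4 as well. Rcan1 encodes an inhibitor of the phosphatase calcineurin (chr16:92391953-92470867). It stood at 170, 233, 164 and 145 CPM in WT 3-2, WT 3-5, Het 3-1 and Het 3-6, and at 54.3 to 87.9 CPM (median 80.4) in prefix 4. Every prefix 3 library was above every prefix 4 library, with a log2 fold change of -1.28 ± 0.12 (SE, edgeR adjusted p = 0.00129). Txnip, an alpha-arrestin that binds thioredoxin and restrains glucose uptake (chr3:96557957-96561883), was at 62.5, 69, 52.9 and 63.9 CPM in WT 3-2, WT 3-5, Het 3-1 and Het 3-6 and at 26.1 to 40.1 CPM (median 30.5) in prefix 4. The log2 fold change was -1.03 ± 0.11 (SE, edgeR adjusted p = 0.00161). Arrdc3, another alpha-arrestin (chr13:80883384-80896042), was at 167, 150, 167 and 148 CPM in WT 3-2, WT 3-5, Het 3-1 and Het 3-6 and at 85.4 to 111 CPM (median 102) in prefix 4, again with no overlap, and its log2 fold change was -0.68 ± 0.08 (adjusted p = 0.00492). The related Arrdc4, which like Txnip responds to glucose, was at -0.11 ± 0.06 (adjusted p = 0.346). Ppp1r3c, which targets protein phosphatase 1 to glycogen (chr19:36731731-36736653), was at 30.2, 28.4, 30 and 34.2 CPM in WT 3-2, WT 3-5, Het 3-1 and Het 3-6 and at 14.7 to 20.5 CPM (median 18.5) in prefix 4, which gave -0.76 ± 0.09 (adjusted p = 0.00492).

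Clock genes were called in the lower direction only, and most of the list did not pass the test. Of 20 tested members 3 were lower and none higher, beside 0.659% lower and 0.921% higher of all genes tested. The median log2 fold change of the list was -0.11 beside -0.01 for all genes. Per1, a repressor of the clock that is also induced by glucocorticoids (chr11:69095217-69109960), was at 53.2, 55.2, 49.6 and 38.8 CPM in WT 3-2, WT 3-5, Het 3-1 and Het 3-6 and at 28.4 to 37.4 CPM (median 30) in prefix 4. Its log2 fold change was -0.67 ± 0.09 (SE, edgeR adjusted p = 0.0063). Bhlhe40, a repressor that binds E-boxes (chr6:108660629-108666925), was at 48.8, 32.4, 40.9 and 37.3 CPM in WT 3-2, WT 3-5, Het 3-1 and Het 3-6 and at 18.3 to 27 CPM (median 20.9) in prefix 4. It gave -0.91 ± 0.12 (adjusted p = 0.0054). Nr1d1 encodes the nuclear receptor REV-ERB alpha, which represses Arntl (chr11:98767932-98775333). Levels were 12.3, 16.5, 12.2 and 16.6 CPM in WT 3-2, WT 3-5, Het 3-1 and Het 3-6 and at 8.01 to 10.9 CPM (median 9.23) in prefix 4, a log2 fold change of -0.61 ± 0.12 (adjusted p = 0.0329). In none of the 3 did the prefixes overlap, which for Per1 and Bhlhe40 was a condition of the naming rule. The Nr1d1 call held in 3 of the 10 omissions (without Het 3-1, WT 4-4 or WT 4-6) and reached an adjusted p of 0.117 without WT 3-5. Nr1d1 overlaps Thra on the other strand, the libraries hold no strand information, and Thra was at -0.02 (adjusted p = 0.978). Genes of the other arms of the clock had log2 fold changes of 0.01 (Arntl), -0.11 (Clock), 0.44 (Per2), -0.22 (Per3), 0.21 (Cry1), 0.04 (Nr1d2) and 0.34 (Dbp), all with adjusted p above 0.18. In the glucocorticoid list Per1 was the 1 called gene of 14 tested, and Fkbp5 (-0.08), Tsc22d3 (0.08) and Sgk1 (-0.14) did not pass.

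Since several of these genes are known to be reached through E-boxes or cyclic AMP response elements (CRE) near their start sites, the 250 bases before each RefSeq start (GRCm38.p6) were searched on both strands for CACGTG (E-box), TGACGTCA (CRE), GCGGGGGCG (a site of EGR proteins), TGATGNAA (amino acid response element) and the CArG box of serum response factor. A promoter was listed for 31 of the 43 named genes that were called. Egr1, Bhlhe40, Pip5k1b, Ccdc117 and Bambi were among those without 1, so no motif was searched for in them. Of the 12 lower genes with the smallest p named here 9 had a promoter, and CACGTG lay in 4 of them, those of Calr, Per1, Ppp1r3c and Rcan1. Per1 and Rcan1 each have 2 listed starts, all inside the annotated gene, and CACGTG lay before 1 of the 2 in each. Of the 12 higher genes named by the same rule 8 had a promoter, and 0 of these held it. Over all 32851 windows of this length 6.02% held it, a share per window and not per gene. Among all called genes with a promoter it was found in 10 of 84 lower genes (11.9%) and 13 of 153 higher genes (8.5%), beside 9.2% of the 12892 tested genes with a promoter. Among the other named genes, Slc24a4 (lower) held 1 E-box, and Dmp1 (higher) held 2, at 249 and 44 bases before the first of its listed starts and none before the start nearest its annotated gene. The 30 bases around these E-boxes (for Dmp1 the nearer one) are shown 5′ to 3′ on the strand of the gene with the CACGTG in capitals.
Per1 (chr11:69098771-69098800, plus strand, 166 bases before the start): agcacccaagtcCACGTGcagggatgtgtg
Ppp1r3c (chr19:36736691-36736720, minus strand, 104 bases before the start): gagggaccggttCACGTGatctggctttga
Calr (chr8:84847138-84847167, minus strand, 224 bases before the start): ctgaggttcagtCACGTGaccgtgcctgag
Rcan1 (chr16:92466343-92466372, minus strand, 191 bases before the start): cagagtgggtgtCACGTGacaaaaatcccg
Slc24a4 (chr12:102128622-102128651, plus strand, 93 bases before the start): aggggaggtgtaCACGTGcaggggaggggg
Dmp1 (chr5:104197519-104197548, plus strand, 44 bases before the start): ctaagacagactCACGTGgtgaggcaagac

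The window before the second listed start of Rcan1 holds a CRE, as does that of Cdkn2b, an inhibitor of the cell cycle that was also lower. TGACGTCA was found in 5 of 84 lower genes (5.95%) and in 6 of 153 higher genes (3.92%), beside 2.72% of tested genes with a promoter and 1.55% of all windows. The whole window before the second Rcan1 start is shown because counts per gene do not separate transcripts from the 2 starts. The CRE is in capitals.
Rcan1 (chr16:92400079-92400328, minus strand): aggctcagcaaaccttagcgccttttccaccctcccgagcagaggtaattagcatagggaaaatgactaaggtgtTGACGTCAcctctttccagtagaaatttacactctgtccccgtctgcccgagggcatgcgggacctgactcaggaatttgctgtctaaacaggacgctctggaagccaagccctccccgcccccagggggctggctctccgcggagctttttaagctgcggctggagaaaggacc
Cdkn2b (chr4:89311060-89311089, minus strand, 46 bases before the start): tatttgtctcaTGACGTCAccaagtgtggg
The EGR letters were found in 7 of 84 lower (8.33%) and 7 of 153 higher genes (4.58%), beside 2.57% of all windows and 5.17% of tested genes, and in Slc24a3 they occurred at 3 places, 85, 76 and 59 bases before the start. The amino acid response element was found in 3 of 84 lower genes (3.57%), Myzap among them, and in 2 of 153 higher genes (1.31%), beside 2.62% of tested genes. The CArG box was found in 1 lower and 1 higher gene (1.19% and 0.654%), beside 1.4% of tested genes.

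The remaining lower genes with the smallest p had varied roles. Pip5k1b, a kinase that makes the membrane lipid PI(4,5)P2 (chr19:24294794-24555872), was at 82.2, 73, 86.8 and 87.8 CPM in WT 3-2, WT 3-5, Het 3-1 and Het 3-6 and at 42.8 to 53.2 CPM (median 45.6) in prefix 4. Its log2 fold change was -0.80 ± 0.07 (SE, edgeR adjusted p = 0.000874). Myzap (chr9:71504347-71592360), a junction-associated protein, was at 33.9, 40.3, 34.2 and 43.5 CPM in WT 3-2, WT 3-5, Het 3-1 and Het 3-6 against 20.2 to 26.2 CPM (median 21.4), a log2 fold change of -0.77 ± 0.10 (adjusted p = 0.00492). Cdkn2b, which encodes the CDK inhibitor p15 (chr4:89306299-89311039), was at 3.53, 3.98, 2.73 and 2.82 CPM in WT 3-2, WT 3-5, Het 3-1 and Het 3-6 against 1.31 to 2.07 CPM (median 1.5), and gave -1.10 ± 0.16 (adjusted p = 0.00948). Slc24a3, a potassium-dependent sodium-calcium exchanger (chr2:145167754-145642166), was at 28, 30.7, 27.7 and 26.4 CPM in WT 3-2, WT 3-5, Het 3-1 and Het 3-6 against 17 to 23.4 CPM (median 19.3), and gave -0.55 ± 0.08 (adjusted p = 0.00956). Calr, the calcium-binding chaperone calreticulin (chr8:84841850-84846934), was at 119, 119, 109 and 99.4 CPM in WT 3-2, WT 3-5, Het 3-1 and Het 3-6 and at 77.3 to 95.1 CPM (median 86.6) in prefix 4, with a log2 fold change of -0.41 ± 0.06 (adjusted p = 0.00877). These 5 genes were named among genes without overlap between the prefixes, and all 5 were called in every omission of 1 library. Among the 43 named genes that were called, 19 overlap another annotated gene, whose reads cannot be told apart without strand where exons overlap. The long noncoding RNA Neat1, the scaffold of paraspeckles (chr19:5824708-5845478), was at 275 to 319 CPM in prefix 3 and 151 to 229 CPM in prefix 4 (-0.64 ± 0.12, adjusted p = 0.0254), and its call held in 5 of 10 omissions, up to an adjusted p of 0.096 without WT 3-2. Malat1, another abundant nuclear RNA, was at -0.13 (adjusted p = 0.413).

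Genes higher in prefix 4 were led by Ccdc117 and Bambi. Ccdc117 (chr11:5528887-5542187) stood at 20.9, 19.4, 20 and 17.7 CPM in WT 3-2, WT 3-5, Het 3-1 and Het 3-6 and at 28.7 to 34.3 CPM (median 31.6) in prefix 4. Its log2 fold change was 0.70 ± 0.07 (SE, edgeR adjusted p = 0.00161). Bambi encodes a pseudoreceptor that dampens TGF-beta and BMP signalling and is itself a target of both. Levels were 416, 371, 515 and 423 CPM in WT 3-2, WT 3-5, Het 3-1 and Het 3-6 and at 655 to 741 CPM (median 694) in prefix 4, a log2 fold change of 0.73 ± 0.08 (adjusted p = 0.00341). Sesn2, a sestrin induced by amino acid shortage and other stress that restrains mTORC1 (chr4:132492032-132510501), was at 14.1, 14.9, 17.3 and 17.9 CPM in WT 3-2, WT 3-5, Het 3-1 and Het 3-6 and at 21.5 to 29.2 CPM (median 25.9) in prefix 4. It gave 0.70 ± 0.09 (adjusted p = 0.00549). Cebpg, a partner of ATF4 in the amino acid response (chr7:35046422-35056573), was at 23.5 to 28.7 CPM in prefix 3 and 35 to 50.2 CPM in prefix 4 (0.66 ± 0.09, adjusted p = 0.00877). Of the genes around them, neither Atf4 (0.12, adjusted p = 0.415) nor its targets Asns (0.02), Chac1 (0.11), Ddit3 (-0.18) and Trib3 (-1.35, adjusted p = 0.086) passed. In the endoplasmic reticulum stress list 24 members were tested, Sesn2 was higher, Calr lower, and the median was -0.04. Of all genes tested 0.921% were higher and 0.659% lower.

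The other genes with the smallest p in this direction had varied roles. Ahdc1, a DNA-binding protein (chr4:133011260-133078110), was at 17 to 18.6 CPM in prefix 3 and 25.4 to 29.5 CPM in prefix 4 (log2 fold change 0.60 ± 0.07 SE, edgeR adjusted p = 0.00389). Nup50, a nuclear pore protein (chr15:84923411-84942963), was at 27.9 to 31.9 and 40.6 to 52 CPM (0.61 ± 0.08, adjusted p = 0.00492). Wdr3, a part of the machinery that processes the small ribosomal subunit RNA (chr3:100138180-100162407), was at 34.2 to 37 and 47.1 to 48.8 CPM (0.44 ± 0.05, adjusted p = 0.00492). Phlda1 (chr10:111506286-111508645) was at 5.5 to 6.64 and 9.18 to 10.4 CPM (0.64 ± 0.08, adjusted p = 0.00625). Zfp574, Arl13b, Phf23 and Znfx1 made up the rest of the 12, with log2 fold changes between 0.45 and 0.54 and adjusted p between 0.00862 and 0.00948. Arl13b is a small GTPase of the primary cilium, and Phf23 a PHD finger protein. These 8 genes were named among genes without overlap, so all prefix 4 libraries lay above all prefix 3 libraries in each by choice. Zfp574, Arl13b and Znfx1 lost their calls without WT 3-2, with adjusted p of 0.0552, 0.0556 and 0.0556.

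Counts over gene families, which were chosen after the values were seen, carry no test. Each family was counted over its protein-coding members. Among the zinc finger genes named Zfp 14 were higher, 3.92% of those tested, beside 1.26% of protein-coding and 0.921% of all genes. In this family 1 was lower (0.28%, beside 0.65% of protein-coding and 0.659% of all genes). Its median log2 fold change was 0.09, beside 0.01 for protein-coding and -0.01 for all genes. Among 20 nucleoporins (Nup) 3 were higher, Nup50 (0.61), Nup153 (0.32) and Nup54 (0.37), and the median of the family was 0.13. Nup50 was called in all 10 omissions of 1 library, Nup153 in 1 and Nup54 in 2. Both Thap2 (0.73) and Thap11 (0.56) of 8 THAP domain genes were higher, called in 9 and 5 of the 10 omissions. Single genes also chosen after their values were seen were Cbx2, at 3.53 to 5.16 CPM in prefix 3 and 7.08 to 11.5 CPM in prefix 4 (1.04 ± 0.17, edgeR adjusted p = 0.0133), and Ezh2 (0.39, adjusted p = 0.0129). In the lower direction stood Hist1h1c (-0.90, edgeR adjusted p = 0.0369) and H1f0 (-0.39, adjusted p = 0.0423), 2 of 7 linker histones. They were called in 3 and 2 of the 10 omissions. The sodium-calcium exchangers Slc24a3 and Slc24a4 were lower too, 2 of 5 Slc24a genes. Of 18 autophagy genes (Atg) 1 was higher and 2 were lower, with a median of 0.03. Protein-coding genes made up 96.4% of the higher and 69.5% of the lower genes, beside 70.5% of all tested. Genes of the annotation class TEC, transcripts that await experimental evidence, made up 14.2% of the lower genes (20 genes), 2.03% of the higher genes (4 genes) and 7.26% of all tested. The median log2 fold change of all 1553 tested TEC genes was -0.12. TEC genes took 0.847% to 0.901% of the counts in prefix 3 and 0.785% to 0.885% in prefix 4. With the log2 TEC share as a covariate, an alternative added after seeing the data, 18 higher and 14 lower genes were called.

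Of the enamel genes of the secretory stage, only Sp6 passed the test. In this list of 22 tested members 1 was higher and none lower, beside 0.921% higher and 0.659% lower of all genes tested. Its median log2 fold change was -0.03. The log2 fold changes were -0.08 ± 0.13 (SE) for Amelx, -0.14 ± 0.12 for Ambn, -0.03 ± 0.09 for Enam and -0.10 for the protease Mmp20, with adjusted p of 0.812, 0.634, 0.918 and 0.608. Amelx lay between 37900 and 40400 CPM in prefix 3 and between 29100 and 45800 CPM in prefix 4, where its lowest libraries were WT 4-5 (29600 CPM) and WT 4-6 (29100 CPM). Sp6, a transcription factor needed for ameloblast differentiation (chr11:97013394-97024734), was at 3.75, 3.01, 3.45 and 3.63 CPM in WT 3-2, WT 3-5, Het 3-1 and Het 3-6 and at 3.95 to 6.87 CPM (median 5.57) in prefix 4. This gave 0.73 ± 0.15 (adjusted p = 0.0382). The call held in 1 of 10 omissions, that of WT 4-6, and reached an adjusted p of 0.114 without WT 3-5. An antisense gene overlaps Sp6, Gm11532, whose mean was 3.31 CPM in prefix 3 and 3.94 CPM in prefix 4 (adjusted p = 0.573).

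Maturation-stage genes were called in the lower direction for Odam and Slc24a4. Of 26 tested members these 2 were lower and none higher, beside 0.659% lower and 0.921% higher of all genes tested. The median of the list was -0.06. Odam, an odontogenic protein of the maturing enamel surface (chr5:87885029-87894174), was at 2020 and 2260 CPM in WT 3-2 and 3-5 and at 1500 and 1320 CPM in Het 3-1 and 3-6. Levels of Odam in prefix 4 were 1390, 1360, 1190 and 1420 CPM for WT 4-1, 4-4, 4-5 and 4-6, and 781 and 898 CPM for Het 4-2 and 4-3. The prefixes overlapped as wholes, and within each genotype prefix 4 lay below prefix 3. The log2 fold change for the prefix was -0.71 ± 0.08 (SE, edgeR adjusted p = 0.00341), and that for Het against WT in the same model was -0.65 ± 0.08 (adjusted p = 0.00604). Slc24a4, a sodium-calcium exchanger that supplies calcium to maturing enamel (chr12:102128733-102267091), was at 5.1, 8.61, 2.19 and 2.51 CPM in WT 3-2, WT 3-5, Het 3-1 and Het 3-6 and at 3.3, 3.18, 2.37 and 1.45 CPM in WT 4-1, 4-4, 4-5 and 4-6. Het 4-2 and 4-3 had 0.232 and 0.87 CPM. Its log2 fold change was -1.63 ± 0.31 (adjusted p = 0.0277), and the call held in 4 of 10 omissions (WT 4-1, 4-4, 4-5 or 4-6) and reached an adjusted p of 0.109 without WT 3-5. Amtn (-1.31, adjusted p = 0.0716), Odaph (-0.75, adjusted p = 0.111) and the protease Klk4 (-0.08, adjusted p = 0.878) did not pass.

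Dentin genes were called in the higher direction for Dmp1 and Enpp1, while Dspp did not pass. Of 25 tested odontoblast and dentin genes these 2 were higher and none lower, beside 0.921% higher and 0.659% lower of all genes tested. The median log2 fold change of the list was -0.06. Dmp1, a phosphoprotein that promotes mineralization (chr5:104202613-104214102), was at 128 and 135 CPM in WT 3-2 and 3-5 and at 84.7 and 88.4 CPM in Het 3-1 and 3-6. Levels of Dmp1 in prefix 4 were 157, 191, 165 and 148 CPM for WT 4-1, 4-4, 4-5 and 4-6, and 150 and 125 CPM for Het 4-2 and 4-3. Within each genotype prefix 4 was above prefix 3, with a log2 fold change of 0.47 ± 0.10 (SE, edgeR adjusted p = 0.0346). Enpp1, which makes the mineralization inhibitor pyrophosphate (chr10:24637914-24712159), gave 0.54 ± 0.11 (adjusted p = 0.0318), from 67.2 to 121 CPM in prefix 3 and 99.4 to 184 CPM in prefix 4. The Dmp1 call held in 3 of 10 omissions (WT 4-1, 4-4 or 4-6) and reached an adjusted p of 0.112 without Het 3-6, and the Enpp1 call held in 4 (WT 3-5, 4-1, 4-4 or 4-6) and reached 0.132 without WT 3-2. Dspp was at -0.01 ± 0.09 (adjusted p = 0.983). Col1a1, the alpha 1 chain of collagen I, varied widely within both prefixes. WT 3-2 and Het 3-1 had 8780 and 8590 CPM, WT 3-5 and Het 3-6 28000 and 24200 CPM, and prefix 4 libraries 11400 to 32000 CPM (0.39 ± 0.38, adjusted p = 0.681). In the list of pulp and follicle mesenchyme 1 of 23 tested genes was higher, the homeobox gene Msx1 (chr5:37820485-37824583), at 56.2 to 62.8 CPM in prefix 3 and 69.9 to 88.2 CPM in prefix 4 (0.39 ± 0.07, adjusted p = 0.0266). It was called in 5 of 10 omissions, and without WT 3-2 its adjusted p was 0.123.

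**Figure D4:**
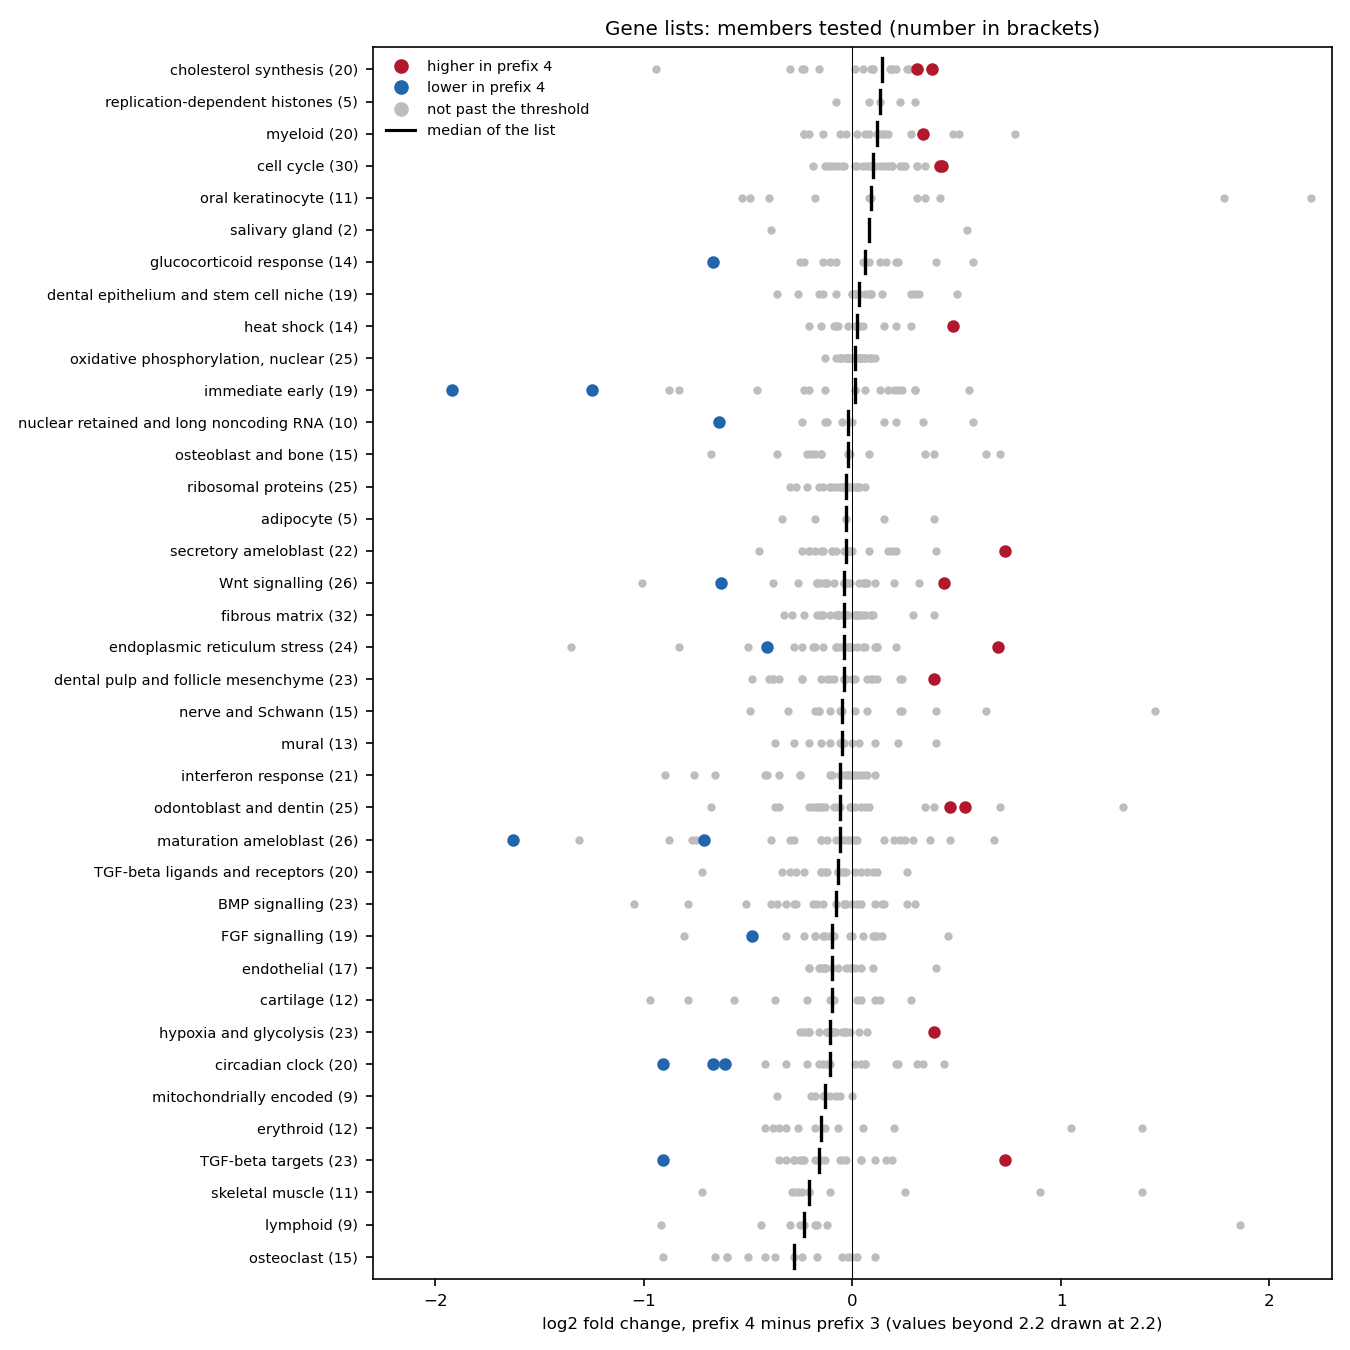
Log2 fold change (prefix 4 minus prefix 3) of each tested member of 38 gene lists, with the number of members tested in brackets and the list's median as a black bar. Red members are higher and blue members lower in prefix 4 at an adjusted p under 0.05, and most lists hold no coloured member, with medians from -0.28 (osteoclast) to 0.14 (cholesterol synthesis).

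Signalling lists held few called members, and the counts stand beside 0.921% higher and 0.659% lower of all genes tested. Among 23 tested TGF-beta targets Bambi was higher and Bhlhe40 lower, and the median was -0.16. Skil (-0.35, adjusted p = 0.0708), Pmepa1 (-0.28, 0.0899), Tgfbi (-0.23, 0.0684), Smad7 (0.16, 0.623) and Ccn2 (-0.15, 0.716) did not pass. No ligand or receptor of TGF-beta was called of 20 tested (median -0.07). Tgfbr2 itself was at 173 to 191 CPM in prefix 3 and 151 to 186 CPM in prefix 4 (-0.12 ± 0.07 SE, edgeR adjusted p = 0.447), and the signal transducer Smad4 at -0.34 (adjusted p = 0.0716). In the BMP list 0 of 23 tested genes were called (median -0.08), with Id3, a BMP target, at 0.30 (adjusted p = 0.116). Of 26 tested Wnt genes Wnt3a was higher (0.44 ± 0.09, adjusted p = 0.0396) and the R-spondin receptor gene Lgr6 lower (-0.63 ± 0.13, adjusted p = 0.0336), and each call held in 2 of 10 omissions (WT 4-1 or 4-6 for Wnt3a, WT 4-1 or 4-4 for Lgr6), with adjusted p up to 0.123 and 0.113 without Het 3-6 and WT 3-5. Axin2, a general Wnt target, was at 0.20 (adjusted p = 0.299).

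Lists of metabolism and growth held few calls, and the counts stand beside 0.921% higher and 0.659% lower of all genes tested. In the cholesterol list 2 of 20 tested genes were higher, the squalene epoxidase gene Sqle (0.38 ± 0.06 SE, edgeR adjusted p = 0.0105) and Cyp51, a demethylase of the same pathway (0.31 ± 0.06, adjusted p = 0.0277). Sqle was at 55.2 to 63.5 CPM in prefix 3 and 69.1 to 89.2 CPM in prefix 4. The squalene synthase gene Fdft1 was at 0.37 (adjusted p = 0.0507), and the median of the list was 0.14. Of 30 cell cycle genes 2 were higher, the cyclin gene Ccnb1 (0.43 ± 0.08, adjusted p = 0.0273) and the mitotic kinase gene Plk1 (0.42 ± 0.09, adjusted p = 0.0368), with a median of 0.10. Mki67 (0.11) and Top2a (-0.04) did not pass. Chordc1, an HSP90 co-chaperone, was the 1 higher gene of 14 in the heat shock list (0.48 ± 0.07, adjusted p = 0.0105), and Hsph1 was at -0.08. Ero1l, an oxidase of the endoplasmic reticulum, was the 1 higher gene of 23 in the hypoxia and glycolysis list (0.39 ± 0.07, adjusted p = 0.0194), whose median was -0.11. Leaving out WT 3-2 ended the calls of Sqle (0.0691), Cyp51 (0.092), Ccnb1 (0.0841), Plk1 (0.147) and Ero1l (0.0811), and other omissions ended them too. Of 10 omissions, Sqle was called in 8, Ccnb1 and Ero1l in 5 each, Cyp51 in 4 and Plk1 in 2. No gene was called in the lists of interferon response (21 tested), ribosomal proteins (25), nuclear oxidative phosphorylation (25), mitochondrially encoded genes (9) and fibrous matrix (32).

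Markers of other cell types gave 1 call, while 1.58% of all genes tested were called. Adgre1, the macrophage marker F4/80, was higher, at 19.8 to 22.6 CPM in prefix 3 and 23.4 to 32.1 CPM in prefix 4 (0.34 ± 0.08 SE, edgeR adjusted p = 0.0476), but it was called in none of the 10 omissions (adjusted p from 0.0527 to 0.164). The other 19 myeloid genes tested did not pass, and Cd68 was at -0.14. For each list the level is given as the mean log2(CPM + 0.5) of its members. The oral keratinocyte level (11 of 20 genes tested) was 0.4 to 0.68 in prefix 3 and 0.37 to 1.4 in prefix 4, where Het 4-3 gave the highest value, and Krt4 was listed at 0 in Het 3-6, WT 4-1 and WT 4-6. The skeletal muscle level (11 of 20 tested) was 0.72 to 0.77 and 0.46 to 0.85. The osteoclast level (15 of 16 tested) was 2.95 to 3.19 and 2.68 to 3.22, with a median log2 fold change of -0.28. Levels were 4.08 to 4.13 and 3.97 to 4.11 for endothelium (17 tested), 3.28 to 3.33 and 3.05 to 3.24 for cartilage (12 tested), and 1.87 to 2.24 and 1.51 to 2.34 for erythroid genes (12 tested). No member of these 6 lists was called, nor any of the mural, nerve, lymphoid, adipocyte, salivary gland, osteoblast, dental epithelium and replication-dependent histone lists. In whole molars, fewer cells of a type cannot be told apart from less RNA per cell. With the oral keratinocyte and muscle levels as covariates 75 higher and 49 lower genes were called, and 32 of the 43 named calls stood. Without WT 4-5 and WT 4-6, the libraries apart on component 2, 322 higher and 413 lower genes were called, and 42 of the 43 stood (an alternative added after seeing the data).

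The prefix difference was compared between genotypes, with 4 WT libraries against 2 and 2 Het libraries against 2. No gene passed the test of whether its prefix difference itself differed between WT and Het (edgeR interaction, 0 of 21387 genes, smallest adjusted p = 0.998, and 607 genes or 2.84% at an unadjusted p under 0.05), and DESeq2 called 0 as well. This fit had 6 residual degrees of freedom and 2 libraries in 3 of its 4 arms. Egr1 was lower by -1.89 in WT and -1.96 in Het on the log2 scale, Rcan1 by -1.35 and -1.19, and Txnip by -1.03 and -1.04. Bambi was higher by 0.80 and 0.62 and Sesn2 by 0.77 and 0.62. Dmp1 gave 0.33 in WT and 0.67 in Het, and Slc24a4 -1.41 and -2.08, each with an interaction adjusted p of 0.998 (edgeR). All 197 higher and 141 lower genes had the same sign in both genotypes, which their choice over both genotypes favours. The medians were 0.43 in WT and 0.42 in Het for the higher genes and -0.51 and -0.58 for the lower genes. In the main model, with genotype and prefix and no interaction, 13 genes were higher and 28 lower in Het than in WT. Of these, 3 were also called for the prefix, as were 1.58% of all genes tested. Named after their values were seen, they were Odam, Dio2 (prefix -0.42, genotype 1.09 ± 0.08) and Pot1b (prefix -0.43, genotype -0.61 ± 0.08). Dio2, the enzyme that activates thyroid hormone, was at 27 and 29.5 CPM in WT 3-2 and 3-5 and at 19.4 to 21.9 CPM in the 4 WT libraries of prefix 4. Het molars had 56.6 and 60.3 CPM in prefix 3 and 38.3 and 51.6 CPM in prefix 4, so the genotypes did not overlap within either prefix.

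The prefix 5 libraries took no part in the test, and their levels are set beside it as a description. The mean of Het 5-1 and 5-2 was nearer the prefix 4 mean in 159 of 197 higher genes (80.7%) and in 112 of 141 lower genes (79.4%), beside 60% of all genes tested. The called genes were selected for a gap between prefixes 3 and 4, so these shares are not like for like. Egr1 was at 22.1 and 23 CPM in them, between the prefixes. Bambi was at 686 and 652 CPM and Sesn2 at 26.2 and 25.5 CPM, within the range of prefix 4. Ahdc1, at 37.9 and 36.3 CPM, was above every library of both prefixes, and Dmp1, at 88.9 and 75.3 CPM, was at the level of the Het libraries of prefix 3. Het 5-1 had the highest skeletal muscle level of the P5 libraries (2.29).

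For the direction of each gene with age, the 5 Het molars at P11 were set beside the 2 prefix 5 Het molars at P5, since neither set enters the prefix comparison. Among the genes higher in prefix 4, 134 of 197 (68%) were lower at P11 than at P5, beside 49.9% of all genes tested. Among the genes lower in prefix 4 it was 71 of 140 (50.7%). Without Het 5-2, whose labels disagree on its age, the shares were 70.6% and 50%. The lower genes included some that were far higher at P11, such as Odam (5.89 on the log2 scale), Slc24a4 (7.35), Neat1 (3.44), Rcan1 (3.01) and Bhlhe40 (2.58), and some that were lower, such as Pip5k1b (-2.69), Myzap (-1.30) and Egr1 (-0.56). Among the higher genes Sp6 (-2.65), Wnt3a (-3.66) and Bambi (-0.95) were lower at P11, and Dmp1 (1.27) and Enpp1 (1.69) were higher. The higher genes differ from all genes tested in class (96.4% protein-coding beside 70.5%) and level (median 27.5 CPM beside 6.38 CPM), so the background is not like for like. Het 5-1 and 5-2 were both male by Ddx3y, while the P11 Het libraries held both sexes. These shares are descriptions and carry no test.

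At P11 the libraries have prefixes 1 and 2, and were compared with the same model. By Ddx3y all prefix 2 libraries were female, while WT 1-3, WT 1-4, Het 1-2 and Het 1-5 of prefix 1 were male. The oral keratinocyte level was 6.75 and 5.56 in WT 2-1 and 2-4, 1.73 to 2.49 in WT of prefix 1 and 5.72 in Het 1-5. Neither sex nor this level was a covariate, and their part in the differences was not tested. With genotype as covariate, 330 genes were higher (1.5%) and 433 lower (1.97%) in prefix 2 than in prefix 1, together 3.46% of the 22027 tested (edgeR, adjusted p under 0.05). Of the 197 genes higher in prefix 4 at P5, 6 were among the 330 (3.05% of the P5 set, 1.82% of the P11 set). Of the 141 lower genes 13 were among the 433 (9.22% and 3%). Another 4 were called at both ages in opposite directions. Txnip was lower in prefix 4 and in prefix 2 (-1.03 and -0.78), as were Ppp1r3c (-0.76 and -0.68), Cdkn2b (-1.10 and -0.58), Slc24a3 (-0.55 and -0.49) and Calr (-0.41 and -0.33). Dmp1 was higher in both (0.47 and 0.99). Chosen after the values were seen, Ctnnb1, which encodes beta-catenin, was lower in both (-0.31 and -0.50), and Nrarp, a target of Notch, was higher in both (0.99 and 0.87). At P5 the Ctnnb1 call held in 1 of 10 omissions and the Nrarp call in 7. Nr1d1 was lower in prefix 4 and higher in prefix 2 (-0.61 and 0.70). Egr1 did not pass at P11 (0.40, adjusted p = 0.193), nor did Rcan1 (-0.10, adjusted p = 0.89) or Bambi (-0.06, adjusted p = 0.782). The prefixes are names, so the sign of a prefix difference at P11 has no fixed relation to that at P5.

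**Figure D5:**
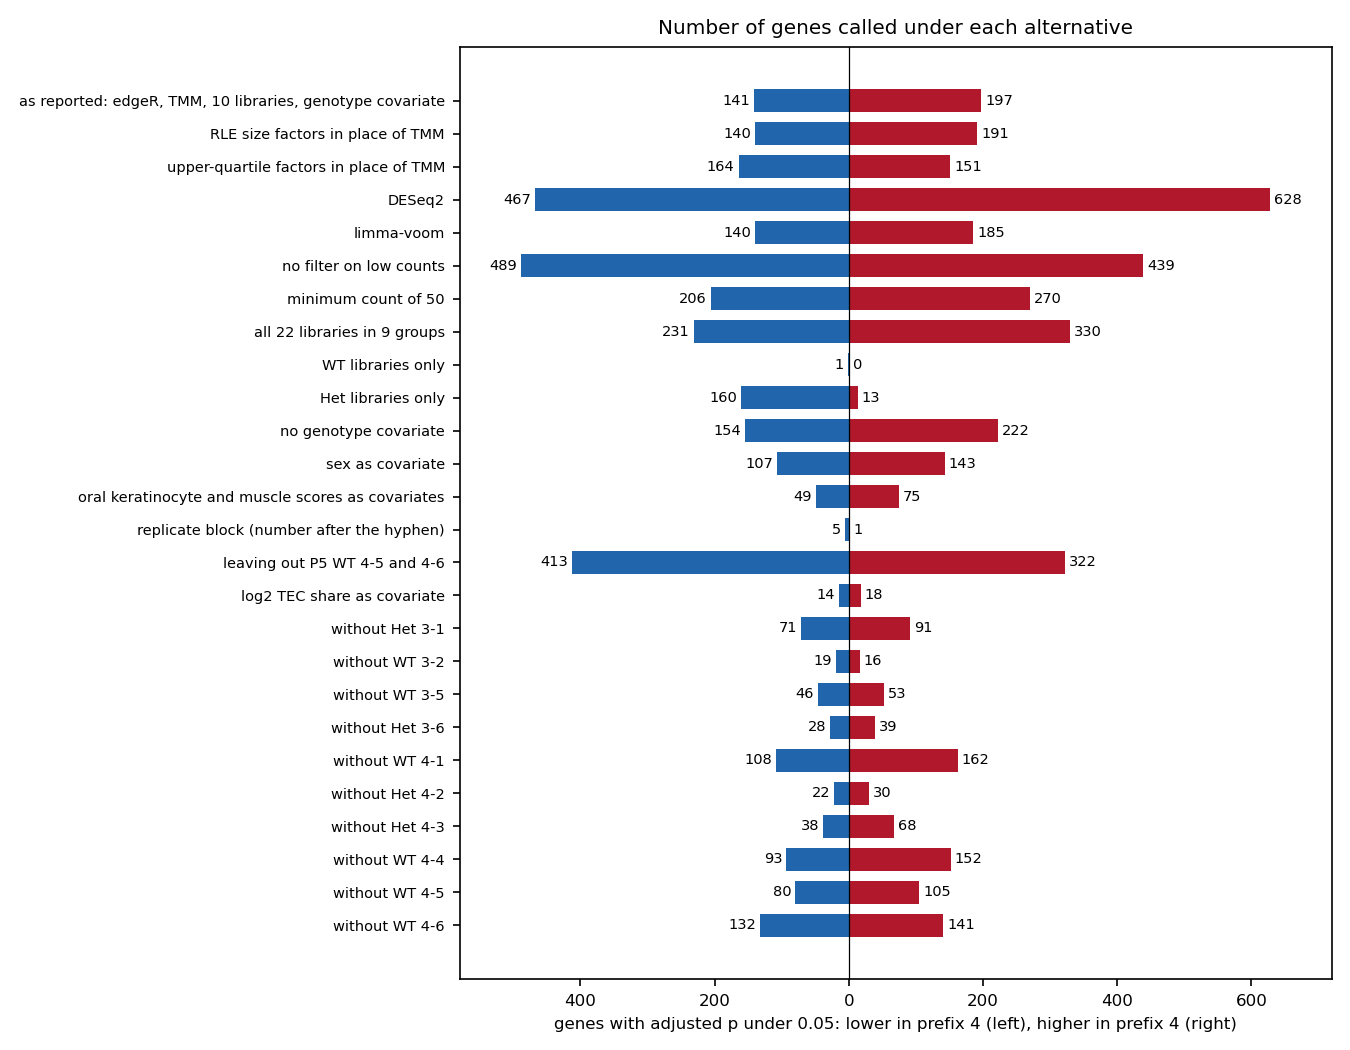
Number of genes called at an adjusted p under 0.05 as reported (first row) and under each alternative, lower in prefix 4 to the left in blue and higher to the right in red. Counts run from 0 higher and 1 lower in the WT libraries alone to 628 higher and 467 lower with DESeq2, and leaving out any prefix 3 library left at most 91 higher and 71 lower.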

How the data were processed

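RNA-seq libraries of dissected first molars were made with an unstranded tagmentation kit, per the labels' protocols. The authors deposited raw read counts per gene for 22 libraries, and STAR 2.7.3a, DESeq2, edgeR and limma with the GRCm38 build are named in the submitters' processing notes. Neither counter nor annotation is named there. Of the per-sample columns 0 were left unused.

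Groups came from library names. The 10 libraries of P5 prefixes 3 and 4 were fitted with genotype and prefix in edgeR 4.0.16 (R 4.3.3) by the quasi-likelihood F test, two-sided, with TMM factors, the filterByExpr filter (minimum count 10, minimum total 15), 7 residual degrees of freedom and Benjamini-Hochberg adjustment over 21387 genes at a threshold of 0.05. SE was taken as the absolute log2 fold change over sqrt(F). limma 3.58.1 and DESeq2 1.42.0 were alternatives. Scripts were tested on simulated data. Replicates differed by more than sampling noise (chi-square per degree of freedom 9.09 to 92.7). Symbols and coordinates came from GENCODE M21 on GRCm38 (21353 of the tested IDs matched), and promoters from RefSeq on GRCm38.p6.

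Genes were named by rule: the 12 called genes of smallest p per direction whose prefixes did not overlap and that have a full symbol, up to 5 called members per direction of each list (otherwise its 2 members of smallest p), and tissue markers. The members and the 39 lists were chosen with earlier results of these data known. The alternatives without WT 4-5 and WT 4-6 and with the TEC share were chosen after seeing the data. Prefix 5 and P11 libraries served only where named.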

Additional observations from a re-analysis of the deposited data

Results flagged for a closer look

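In 206 groups of values, each the 4 libraries of prefix 3 or the 6 of prefix 4 for 1 gene or score, the highest or lowest library was tested for its distance from the rest by Dixon's 95% criterion. It picked out 6 groups (2.91%), and chance alone picks about 1 in 20.

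Het 4-3 accounted for 3 of the 6. Krt4, a keratin of the oral lining, was at 9.29 CPM in it and at 0 to 0.444 CPM in the other prefix 4 libraries. Krt13, its partner keratin, was at 4.32 CPM against 0 to 0.235 CPM. The oral keratinocyte score was 1.4 against 0.37 to 0.62 on the log2 scale. The other 3 were single genes in 3 libraries. Acta2, smooth muscle actin, was at 21.6 CPM in WT 3-2 and at 16.6 to 16.9 CPM in the other prefix 3 libraries. Esam, an endothelial adhesion molecule, was at 37.5 CPM in WT 3-5 and at 42.5 to 43 CPM in the rest of prefix 3. The ribosomal protein gene Rpl7 was at 60.1 CPM in Het 4-2 and at 64.2 to 66.5 CPM in the rest of prefix 4.

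The count table also holds 18 features that are not mouse genes, which enter no comparison. They took 41 to 160 counts per library, at most 0.000457% of a library.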

How the results depend on the processing

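The counts of 197 higher and 141 lower genes stayed within 1.5 times with RLE factors, upper-quartile factors, limma-voom, a minimum count of 50, no genotype covariate and sex as a covariate. They moved to 628 and 467 with DESeq2, to 439 and 489 without a filter on low counts, and to 330 and 231 in a fit of all 22 libraries. With the oral keratinocyte and muscle scores as covariates they were 75 and 49, with the TEC share 18 and 14, and without WT 4-5 and WT 4-6 322 and 413. The WT libraries alone gave 0 and 1 (1847 genes at an unadjusted p under 0.05) and the Het libraries alone 13 and 160, each with fewer samples. Leaving out 1 library at a time gave 16 to 162 higher and 19 to 132 lower genes, with the lowest counts without WT 3-2. Apart from the samples left out, the cause was not tested. At P11, DESeq2 called 702 higher and 882 lower genes in place of 330 and 433. None of the 43 named calls changed direction under these alternatives. Calls lost were 42 in the WT libraries alone (Egr1 kept), 30 in the Het libraries alone, 40 with the block described next, 25 with the TEC share and 11 with the marker scores, and 6 or fewer under each other alternative that kept all 10 libraries or used all 22. The interaction called 0 genes under every alternative run. The number after the hyphen did not pair libraries of the 2 prefixes, since the deviations of same-numbered libraries correlated at 0.21, -0.03, 0 and -0.06 and no library correlated best with its own number. With that number as a replicate block 1 higher and 5 lower genes were called.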
